A study of Mus musculus with 12 samples.

Results

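The interferon-inducible GTPases described here are 10 mouse genes of 2 related families, the guanylate-binding proteins (GBPs) Gbp2, Gbp3, Gbp4, Gbp5, Gbp6, Gbp7 and Gbp9 and the immunity-related GTPases (IRGs) Igtp, Irgm1 and Irgm2. They were chosen by symbol. Each of the 10 had a row among the 55487 genes of both count tables, and all 10 passed the filter on low counts, among 16768 genes tested in macrophages and 20499 tested in mesenchymal stem cells.

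The study asked how macrophages act on mesenchymal stem cells (MSCs) in osteoporosis. RNA-seq was done on bone marrow-derived macrophages (BMMs) from the limbs of ovariectomized (OVX) or sham-operated C57BL/6 mice, with 3 libraries each. OVX removes the ovaries and serves as a model of postmenopausal bone loss. It was also done on MSCs from limbs of C57BL/6 mice, with 2 libraries each of MSCs grown alone (MSC), MSCs co-cultured with RAW cells (MSC+RAW) and MSCs co-cultured with RAW cells that had been stimulated with lipopolysaccharide (MSC+RAW-LPS). The labels give 8 weeks of age for all 5 groups and no further treatment. RAW cells (RAW264.7) are a mouse macrophage line, and lipopolysaccharide (LPS) is the bacterial outer-membrane glycolipid that TLR4 senses. The labels do not say whether libraries came from separate animals or cultures, so p-values measure the spread between these libraries.

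GBPs and IRGs are cell-autonomous defence proteins. Interferon-gamma and type I interferons signal through JAK kinases to transcription factors that switch these genes on, STAT2, IRF1 and IRF9 among them. GBPs assemble on the vacuoles of intracellular pathogens and on bacterial surfaces and promote inflammasome activation, whereas the IRGs named here (Irgm1, Irgm2 and Igtp, also called Irgm3) are regulatory IRGs that guard the cell's own membranes and hold back the effector IRGs. In macrophages, LPS induces these genes largely through interferon-beta that the cells themselves release.

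The 10 genes lie in 4 places (GRCm38). Gbp5 (chr3:142493978-142522344), Gbp7 (chr3:142530342-142550149), Gbp3 (chr3:142560026-142573209) and Gbp2 (chr3:142620602-142638008) follow each other on the plus strand of chromosome 3. Gbp9 (chr5:105077630-105139539), Gbp4 (chr5:105115767-105139586) and Gbp6 (chr5:105270702-105293698) lie on the minus strand of chromosome 5. On chromosome 11, Irgm1 (chr11:48861968-48871683) is on the minus strand, and Igtp (chr11:58199556-58207591) and Irgm2 (chr11:58199618-58222782) overlap on the plus strand.

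RefSeq promoter windows, 1 for each start site, were found for 7 of the 10 genes, 8 windows in all since Gbp3 has 2. In the 250 bases before the start site, an interferon-stimulated response element (ISRE, GAAANNGAAA on either strand, letters that IRF proteins bind) was present in 7 of the 8 windows, 1 in each gene, against 2.98% of 32851 mouse promoter windows. A gamma-activated site (GAS, TTCNNNGAA, the same on both strands) was present in 4 of the 8, against 7.02% of windows. Those 4 genes (Gbp5, Gbp7, Igtp and Irgm2) held both motifs, as did 0.332% of all windows. The ISRE and GAS matches did not overlap each other in any of these windows. The window of the downstream start site of Gbp3 held neither motif. A match describes letters only.

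The sequences below show these motifs in capitals, 5′ to 3′ on the strand of the gene (RefSeq, GRCm38.p6). The 7 windows with an ISRE are shown, so that the genes with the largest rises in the MSC cultures (Gbp5, Gbp3) and those called in BMMs (Igtp, Irgm2) can be read beside the others. Igtp, Irgm2 and Gbp7 are given over the last 110 bases before the start, and the others over 30 bases around the ISRE. In those others, annotated exons of the gene itself cover 110 of the last 110 bases in Irgm1, 61 in Gbp2, 34 in Gbp5 and 18 in Gbp3. The stretches shown for Irgm1, Irgm2 and Gbp5 lie inside the gene spans given above, and that of Gbp2 in part.
Igtp, chr11:58199446-58199555, plus strand: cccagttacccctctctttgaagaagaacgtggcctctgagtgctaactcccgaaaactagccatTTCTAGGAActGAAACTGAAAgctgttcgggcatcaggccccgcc
Irgm2, chr11:58214867-58214976, plus strand: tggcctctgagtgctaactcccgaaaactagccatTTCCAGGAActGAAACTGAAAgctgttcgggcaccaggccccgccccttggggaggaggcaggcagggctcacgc
Irgm1, chr11:48871428-48871457, minus strand: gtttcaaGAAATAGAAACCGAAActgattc
Gbp5, chr3:142496759-142496788, plus strand: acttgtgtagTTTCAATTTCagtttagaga
Gbp7, chr3:142530226-142530335, plus strand: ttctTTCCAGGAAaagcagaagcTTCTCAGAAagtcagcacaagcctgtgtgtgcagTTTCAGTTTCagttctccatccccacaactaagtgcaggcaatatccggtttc
Gbp3, chr3:142559992-142560021, plus strand: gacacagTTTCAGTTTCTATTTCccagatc
Gbp2, chr3:142620594-142620623, plus strand: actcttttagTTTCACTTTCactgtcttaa

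In Igtp the GAS began 45 bases and the ISRE 34 bases before the start site. In Irgm2 they began 75 and 64 bases before it, in the same order. The ISRE letters of these 2 genes were the same, GAAACTGAAA. The GBP promoters of chromosome 3 carried the ISRE on the opposite strand. In Gbp7 and in the first of the overlapping pair in Gbp3 it reads TTTCAGTTTC on the strand of the gene. On the opposite strand this is GAAACTGAAA, the same letters as in Igtp and Irgm2. Gbp5 held its ISRE farthest out, from 165 bases before the start, and GAS matches from 245 and 52 bases before it. Irgm1 and the upstream start site of Gbp3 had 2 overlapping ISRE matches each and no GAS.

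Library sizes ran from 17012923 to 45367105 counts. Sham replicates 2 and 3 differed by little more than sampling noise, with a chi-square of 2.81 times its expectation over genes of high count against 30.6 to 121 for the other BMM pairs, and the 2 MSC+RAW libraries (3.26, against 18.5 and 50.6 for the other MSC pairs) did as well. Each of these pairs was counted as 1 sample, which left 3 OVX and 2 sham samples, and 2 MSC, 1 MSC+RAW and 2 MSC+RAW-LPS samples. Genes rich in GC stood lower in OVX (Spearman correlation across genes of GC content with relative level, -0.705 to -0.388) and higher in sham (0.234 to 0.64). The same measure was -0.416 to -0.236 in the MSC and MSC+RAW-LPS libraries and 0.502 to 0.509 in MSC+RAW. The MSC+RAW libraries also stood apart in mitochondrial transcripts (0.16% to 0.165% of counts, against 0.533% to 0.746% in MSC and MSC+RAW-LPS). They held 19657 to 19751 genes with counts, against 22068 to 24876. The 10 genes had a GC content of 41.1% to 49.5%.

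Of 20 macrophage markers, all 20 reached 1 CPM (the read count scaled to a common library size with TMM factors) in every library, those labelled MSC included. Lyz2, the lysozyme of myeloid cells, stood at 21663 CPM in MSC, 26491 CPM in MSC+RAW and 9569 CPM in MSC+RAW-LPS. Stromal markers were also present in both kinds of culture. Thy1, a defining surface marker of MSCs, was at 0.371 CPM in MSC, 1.998 CPM in MSC+RAW, 0.390 CPM in MSC+RAW-LPS and 58.2 CPM in OVX. The 12 stromal markers summed to 2730 to 2880 CPM in MSC and 7550 to 8253 CPM in OVX, with 8 of them lower in MSC, such as Col1a1 (457 and 1968 CPM), and 4 higher, such as Eng (62.8 and 19.3 CPM). The BMM and MSC tables were normalized separately. The libraries labelled MSC therefore held abundant transcripts of macrophage markers beside those of stromal markers. A larger share of a cell type and more RNA per cell cannot be told apart in these bulk samples.

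Levels between genes were compared as CPM per kilobase of exon (CPM per kb). In BMMs the IRGs and Gbp2 made up most of the family. The 10 genes together reached 104 ± 31.1 CPM per kb in sham (SD, n = 2) and 56.7 ± 9.19 in OVX (SD, n = 3). Igtp supplied 31.5% of that sum in sham, Gbp2 23.6%, Irgm2 20.8% and Irgm1 15.6%. The chromosome 5 GBPs (Gbp4, Gbp6 and Gbp9) together came to 1.29 CPM per kb in sham.

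In the MSC cultures the sum was 83.2 ± 4.61 CPM per kb in MSC (SD, n = 2), 61.4 in MSC+RAW (n = 1) and 211 ± 15.1 in MSC+RAW-LPS (SD, n = 2). The composition differed as well. The 7 GBPs summed to 32.0 CPM per kb in MSC and 118 in MSC+RAW-LPS, and the 3 IRGs to 51.2 and 93.0. Gbp3 held 6.60% of the family in MSC and 18.0% in MSC+RAW-LPS, whereas Irgm1 held 17.6% and 9.20%. No library of MSC+RAW-LPS (lowest 200 CPM per kb) came near one of MSC (highest 86.5).

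**Figure D1:**
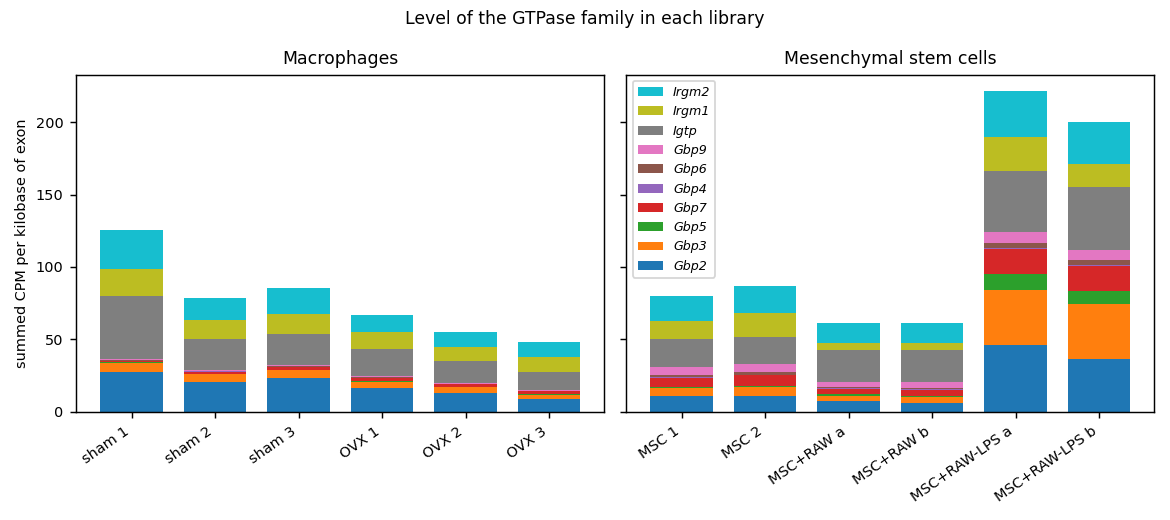
Summed level of the 10 genes in each library, in CPM per kilobase of exon, stacked by gene. Each bar is 1 library. The MSC+RAW-LPS bars reach 200 and 222 and exceed all others of the MSC table, and sham 1 (126) stands above the other BMM libraries. The 2 panels were normalized separately.

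The first comparison asked how OVX altered BMMs. Most of the family stood lower after OVX, but few genes passed the test. Among the 10 genes, 2 were called lower (Igtp and Irgm2) and 0 higher, at an adjusted p of at most 0.05 in edgeR's quasi-likelihood test and a fold of at least 2. Over all genes tested, 3.08% were called lower and 5.39% higher. By direction alone 8 genes were below 0 and 2 above, with a median log2 fold change of -0.67 against -0.01 over all genes tested. At an unadjusted p under 0.05 with the fold limit, 2 were lower and 0 higher, and DESeq2 gave 2 lower.

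Igtp, a regulatory IRG that resides on the endoplasmic reticulum and lipid droplets, measured 88.7, 43.2 and 43.6 CPM in sham replicates 1, 2 and 3 and 36.6, 29.6 and 25.4 CPM in OVX replicates 1, 2 and 3. Every OVX library was below every sham library, and sham 1 stood far above the other sham libraries. Its log2 fold change was -1.12 ± 0.30 (SE; adjusted p = 0.0452).

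Irgm2, a regulatory IRG of Golgi membranes, measured 99.4, 56.3 and 64.3 CPM in sham and 42.3, 38.6 and 39.2 CPM in OVX. Again the groups did not overlap and sham 1 was the highest. The log2 fold change was -1.005 ± 0.22 (SE; adjusted p = 0.0256).

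Both calls depended on single libraries and on settings. Without sham 1 the log2 fold change of Igtp was -0.52 and that of Irgm2 -0.61, and no member was called. No member was called, either, when all 6 libraries were kept as separate samples or when any OVX replicate was left out, and without sham 3 Irgm2 was at -0.96 and not called. Igtp was also not called with trends of GC content and length removed (-1.06, adjusted p = 0.0624 in edgeR), and Irgm2 not with other filters on low counts, where it lay just under the fold limit. Over all 16 alternatives the log2 fold change ran from -1.27 to -0.52 for Igtp and from -1.17 to -0.61 for Irgm2.

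Irgm1, which protects lysosomes and mitochondria and whose loss leaves macrophages unable to contain mycobacteria, measured 110 CPM in sham 1, 74.3 in sham 2 and 81.3 in sham 3, and 70.5, 57.8 and 59.9 CPM in OVX. The groups did not overlap, and the log2 fold change of -0.59 ± 0.21 did not pass (adjusted p = 0.0972). Without sham 1 the value was -0.33.

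Gbp2, the GBP best known for coating Toxoplasma vacuoles and bacteria, had the highest level per length among the GBPs in BMMs. It measured 69.0, 50.9 and 58.0 CPM in sham and 41.4, 33.1 and 22.7 CPM in OVX. The groups did not overlap. The log2 fold change of -0.94 ± 0.26 passed the p limit (adjusted p = 0.0487) and stood just under the fold limit, so Gbp2 was not called. With no fold limit 3 of the 10 genes were lower, where 5.83% of all genes tested were. With trends of GC content and length removed it was called, at -1.10.

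Gbp3 stood at 20.9, 17.8 and 18.3 CPM in sham against 13.5, 12.2 and 9.11 CPM in OVX, without overlap (log2 fold change -0.75 ± 0.23, adjusted p = 0.0642). Gbp7, which is also active against intracellular pathogens, stood the other way. It measured 5.47, 9.24 and 9.01 CPM in sham and 12.3, 10.1 and 10.7 CPM in OVX, again without overlap (log2 fold change 0.59 ± 0.27, adjusted p = 0.183). Sham 1 was the lowest library for Gbp7, and between OVX 2 and sham 2 alone the log2 difference was 0.13. The direction of Gbp7 turned when trends of GC content and length were removed, where the value was -0.05, and Gbp9 turned as well, to -0.13.

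The remaining GBPs were low in BMMs. Gbp5, which promotes inflammasome assembly, lay between 0.943 and 2.57 CPM in sham and between 0.575 and 2.01 CPM in OVX. Gbp4 lay between 0.969 and 1.52 CPM in sham and between 0.798 and 1.34 CPM in OVX. For Gbp6 the ranges were 2.15 to 3.83 CPM and 1.24 to 2.04 CPM, and for Gbp9 they were 3.04 to 3.92 CPM and 3.31 to 6.46 CPM. Of these 4 genes the groups failed to overlap for Gbp6 alone, and none of the 4 passed (adjusted p of 0.714 for Gbp5 and Gbp4, 0.189 for Gbp6 and 0.372 for Gbp9). Gbp6 was called lower, at -1.49, with trends of GC content and length removed (adjusted p = 0.0477). In all, 7 of the 10 members did not overlap between groups, against 42.9% of all genes tested.

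**Figure D2:**
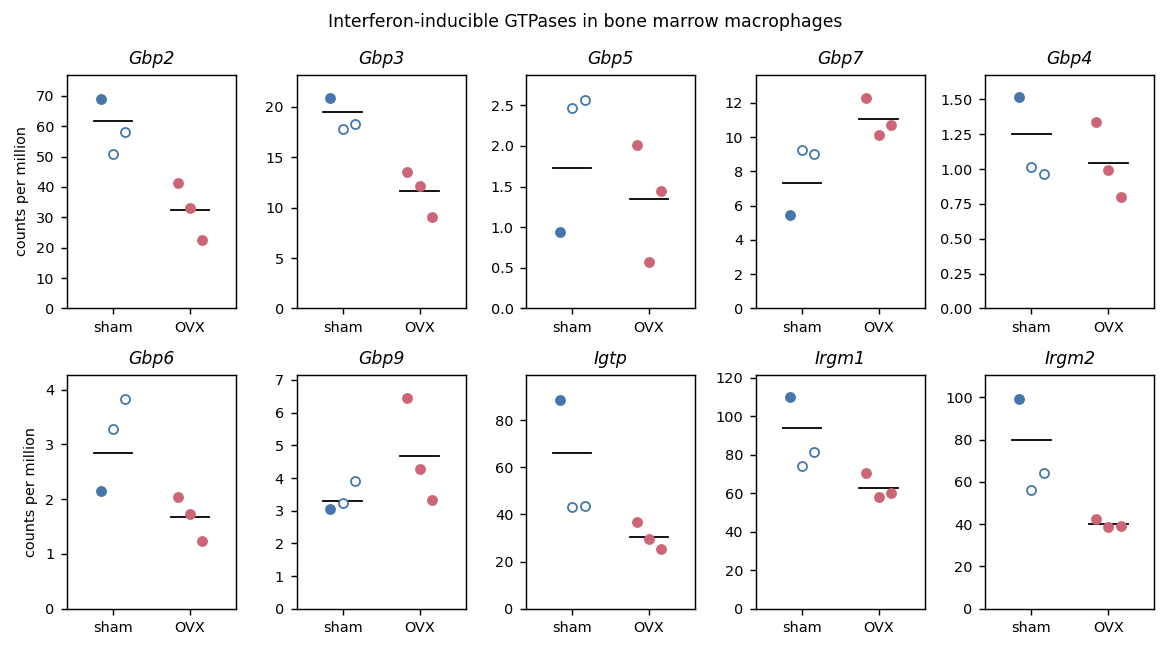
Level (CPM) of each gene in the 6 BMM libraries. Points are libraries, open points the 2 sham libraries counted as 1 sample, and lines the means over samples. Igtp, Irgm1, Irgm2, Gbp2 and Gbp3 are lower in all 3 OVX libraries, Gbp7 is higher, and sham 1 is the highest library for Igtp (88.7) and Irgm2 (99.4).

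Column names carried 2 series of identifiers. Within the 4 libraries of 1 identifier series, 7 of the 10 genes were lower in OVX (Igtp by a log2 difference of -1.02, Irgm2 by -0.96). Within the other, with 1 library a group, 8 were lower (Igtp -0.54, Irgm2 -0.54). Sham 2 and sham 3, counted as 1 sample, stand 1 in each series, so the series are not independent. The labels do not say what the identifiers mark.

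Other genes of the pathway, taken from lists by role, were compared in the same fit. Of 12 further GTPases tested, 2 were called lower and 0 higher in OVX, namely the dynamin-like antiviral GTPases Mx1 (log2 fold change -1.18, adjusted p = 0.00885) and Mx2 (-1.34, adjusted p = 0.00875). Of the 6 ligand and receptor genes tested, 0 were called. Ifngr1, the ligand-binding chain of the interferon-gamma receptor, was at 0.60, and its partner Ifngr2 at -0.58 (adjusted p of 0.0704 and 0.0572). For the type I receptor chains the values were -0.15 for Ifnar1 and -0.53 for Ifnar2, and Il10rb was at -0.05.

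Of 11 kinases and transcription factors, 2 were called lower and 0 higher. Stat2, which works in type I signalling, fell by 1.20 on the log2 scale (adjusted p = 0.00868), and Batf2, an interferon-induced partner of IRF1, fell by 1.62 (adjusted p = 0.0122). Values for the others were -0.46 for Irf1, -0.63 for Irf8, -0.92 for Irf9, 0.04 for Jak1, 0.53 for Jak2 and -0.87 for Tyk2, and none of these was called. Without sham 1, Tyk2 was called lower, at -1.07.

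Of 6 genes of the interferon response, grouped here as feedback genes, 4 were lower and 0 higher. They were Isg15 (-2.04), Usp18 (-1.75), Socs3 (-1.55) and Socs1 (-1.22), with adjusted p between 0.00301 and 0.0377. Socs3 and Socs1 block JAK kinases, and Usp18 strips ISG15 from proteins and dampens the type I receptor. The other two, the phosphatase gene Ptpn2 (0.76) and Pias1 (-0.08), were not called. Of 13 factors of LC3 conjugation and ubiquitin tagging, with which GBPs and IRGs work at vacuoles, 0 were called. Of 7 inflammasome genes, 2 were lower, the adaptor Pycard (-1.18) and Gm12250 (-1.36), which is the effector IRG Irgb10 under its table name. Of 8 genes of LPS sensing, the adaptor Ticam2 was lower (-1.17). For the receptor and the LC3 lists, with 0 called, an unadjusted p with the fold limit and DESeq2 gave 0 as well. Isg15 and Usp18 were called under every alternative tried. Without sham 1, 4 of the 6 feedback genes were still called lower. Without OVX 2, Isg15 and Usp18 kept their calls and the other genes named here lost theirs. Their values then lay near those with all libraries, at -1.23 for Stat2, -1.23 for Mx1, -1.28 for Mx2, -1.60 for Batf2, -1.54 for Socs3, -1.25 for Socs1, -1.19 for Pycard, -1.53 for Gm12250 and -1.13 for Ticam2. Socs1 and Gm12250 were also not called without OVX 1, and Socs1 and Batf2 not with trends of GC content and length removed.

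Transcripts of the interferons were scarce. In BMMs the highest count was 14 for Ifnb1 and 2 for Ifng in any library, and Ifna1, Ifna2, Ifna4, Ifnl2 and Ifnl3 had 0. In the MSC cultures the highest was 4 for Ifnb1 and 2 for Ifng. None of them passed 0.367 CPM.

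Macrophage markers moved in this comparison. Their summed level was 66000 to 70817 CPM in sham and 47831 to 52201 CPM in OVX, and 5 of 20 were called lower and 2 higher. Of 12 stromal markers, 1 was called higher and 0 lower. Of 12 tested markers of other immune cells, 2 were called lower and 0 higher. These markers summed to 1072 to 1315 CPM in sham and 1300 to 1358 CPM in OVX, with the T cell genes Cd3e and Cd3d and the natural killer gene Ncr1 below 1 CPM in every library. Their part in the levels of the GTPase genes was not tested.

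The next comparison asked what the libraries labelled MSC held after co-culture with LPS-stimulated RAW cells. Most of the family rose. Against MSC, 7 of the 10 genes were called higher and 0 lower, where 5.85% of all genes tested were called higher and 5.09% lower. All 10 fold changes were above 0, with a median log2 fold change of 1.28 against -0.01 over all genes. Against MSC+RAW, 8 were called higher and 0 lower, where 15.4% were called higher and 12% lower, with a median of 2.06 against 0.14. The 2 comparisons share the MSC+RAW-LPS libraries and are not independent. The MSC+RAW group is 1 sample, assumed to vary like the others.

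The largest rises were those of Gbp5 and Gbp3 on chromosome 3. Gbp5 measured 7.20 and 6.99 CPM in MSC replicates 1 and 2, 7.48 and 5.86 CPM in the MSC+RAW libraries a and b, and 73.1 and 56.5 CPM in the MSC+RAW-LPS libraries a and b. MSC+RAW-LPS lay far above both other groups, which overlapped each other. The log2 fold change was 3.19 ± 0.19 against MSC (SE; adjusted p = 5.62e-09) and 3.24 ± 0.25 against MSC+RAW (adjusted p = 1.55e-07).

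Gbp3 measured 16.5 and 19.4 CPM in MSC, 12.2 and 12.0 CPM in MSC+RAW, and 124 CPM in each MSC+RAW-LPS library. Its log2 fold change was 2.79 ± 0.16 against MSC (adjusted p = 5.25e-09) and 3.33 ± 0.22 against MSC+RAW (adjusted p = 3.29e-08). The MSC+RAW-LPS libraries stood together, far above the rest.

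Gbp2 was at 27.7 and 27.9 CPM in MSC, 18.2 and 15.8 CPM in MSC+RAW, and 115 and 92.1 CPM in MSC+RAW-LPS. It rose by a log2 fold change of 1.90 ± 0.16 against MSC (adjusted p = 4.27e-07) and 2.57 ± 0.22 against MSC+RAW (adjusted p = 4.91e-07). Gbp7 rose from 35.1 and 39.6 CPM in MSC and 21.3 and 24.99 CPM in MSC+RAW to 97.4 and 96.6 CPM. Its log2 fold changes were 1.38 ± 0.15 (adjusted p = 6.77e-06) and 2.05 ± 0.20 (adjusted p = 2.07e-06). For both genes the order was MSC+RAW, then MSC, then MSC+RAW-LPS, with no overlap between groups.

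Among the chromosome 5 GBPs, Gbp4 and Gbp6 rose and Gbp9 was not called. Gbp4 measured 2.45 and 2.26 CPM in MSC, 1.27 and 1.96 CPM in MSC+RAW, and 8.53 and 6.07 CPM in MSC+RAW-LPS (log2 fold change 1.63 ± 0.31 against MSC, adjusted p = 0.00112, and 2.17 ± 0.41 against MSC+RAW, adjusted p = 0.000572). Gbp6 measured 8.61 and 9.84 CPM, 4.52 and 5.17 CPM, and 18.3 and 23.1 CPM in the same order (1.17 ± 0.21, adjusted p = 0.000672, and 2.08 ± 0.28, adjusted p = 3.35e-05). MSC+RAW-LPS was the highest group in every library for both genes. Without MSC+RAW-LPS library b Gbp6 stood just under the fold limit against MSC and was not called. Of the 100-base stretches in Gbp6 transcripts, 64.5% also occur in other genes, above all Gm43302 and Gbp10, so its reads may be split among copies. For Gbp7 that share was 10.01%, shared with Gm43802, and for the other members at most 5.16%.

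Gbp9, which overlaps Gbp4 on the genome, was not called in either comparison. It measured 30.8 and 30.3 CPM in MSC, 19.985 and 19.5 CPM in MSC+RAW, and 40.6 and 36.0 CPM in MSC+RAW-LPS. The groups did not overlap, and neither fold change reached the limit (0.32 ± 0.16 against MSC, adjusted p = 0.184, and 0.93 ± 0.20 against MSC+RAW, adjusted p = 0.00195). The value against MSC+RAW passed the p limit and stood just under the fold limit, and without MSC+RAW-LPS library b it was 1.02 and called.

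The IRGs behaved unequally. Igtp measured 38.2 and 37.5 CPM in MSC, 44.3 and 44.8 CPM in MSC+RAW, and 85.3 and 87.8 CPM in MSC+RAW-LPS. It was called against MSC (1.19 ± 0.15, adjusted p = 2.35e-05), while against MSC+RAW it passed the p limit and stood just under the fold limit (0.93 ± 0.19, adjusted p = 0.00105). MSC+RAW-LPS was the highest group in every library.

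Irgm2 showed 62.9 and 68.8 CPM in MSC, 50.4 and 50.2 CPM in MSC+RAW, and 118 and 109 CPM in MSC+RAW-LPS. The call fell the other way round, with 0.79 ± 0.15 against MSC (adjusted p = 0.00117, under the fold limit) and 1.15 ± 0.19 against MSC+RAW (adjusted p = 0.000236). Irgm1 had 74.9 and 95.0 CPM in MSC, 30.1 and 31.2 CPM in MSC+RAW, and 136 and 89.7 CPM in MSC+RAW-LPS. MSC and MSC+RAW-LPS overlapped (0.41 ± 0.19, adjusted p = 0.159), while MSC+RAW lay far below both (1.86 ± 0.26, adjusted p = 4.72e-05). Without MSC+RAW-LPS library a the value for Irgm1 against MSC was 0.06.

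**Figure D3:**
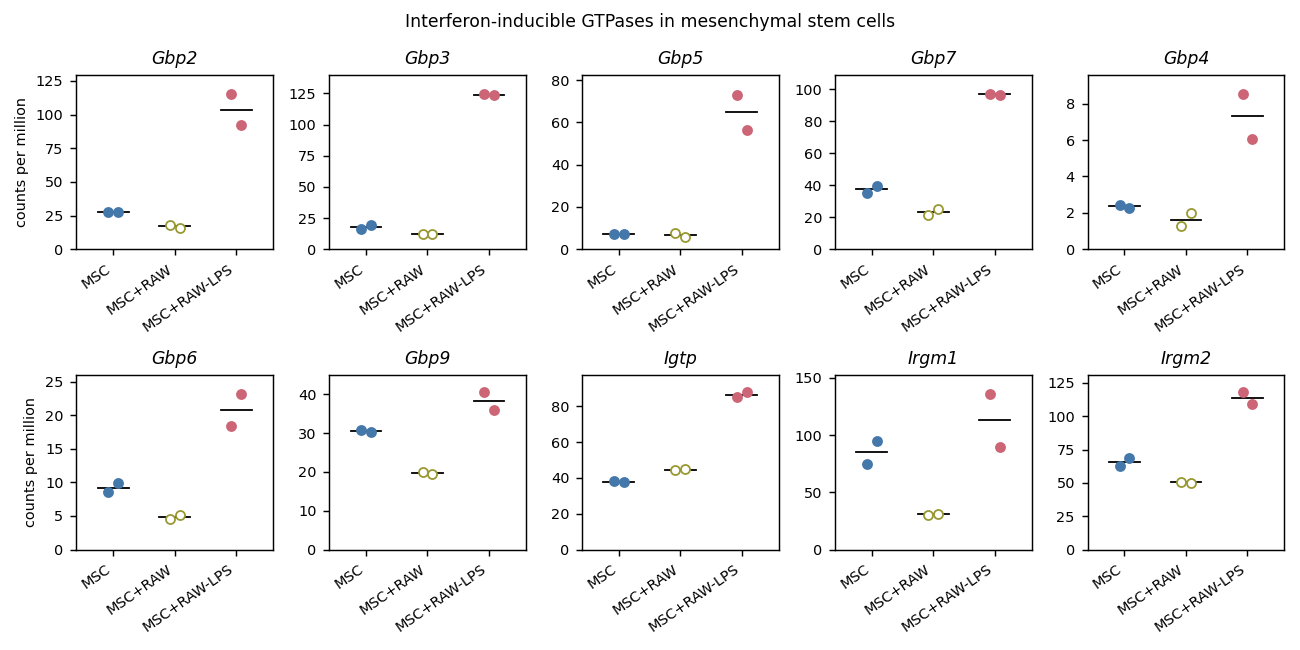
Level (CPM) of each gene in the 6 MSC libraries. Points are libraries, open points the MSC+RAW libraries counted as 1 sample, and lines the means over samples. MSC+RAW-LPS is above both other groups in every library for all genes but Irgm1, where its lower library (89.7) lies between the MSC libraries (74.9 and 95.0).

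By direction, all 10 genes were higher in MSC+RAW-LPS than in MSC+RAW within each of the 2 series of column identifiers. The MSC+RAW libraries, counted as 1 sample, stand 1 in each series, so this is not a repeat. Against MSC, 10 were higher in 1 series and 9 in the other. Groups did not overlap for 9 of the 10 genes against MSC and for all 10 against MSC+RAW, where 57.6% and 78.1% of all genes tested did not overlap. Removing trends of GC content and length kept the 7 genes called against MSC. Against MSC+RAW it lowered the log2 fold change of Gbp7 from 2.05 to 1.31, of Gbp6 from 2.08 to 1.30, of Gbp4 from 2.17 to 1.45 and of Gbp9 from 0.93 to 0.22, and Irgm2, at 0.90, lost its call.

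**Figure D4:**
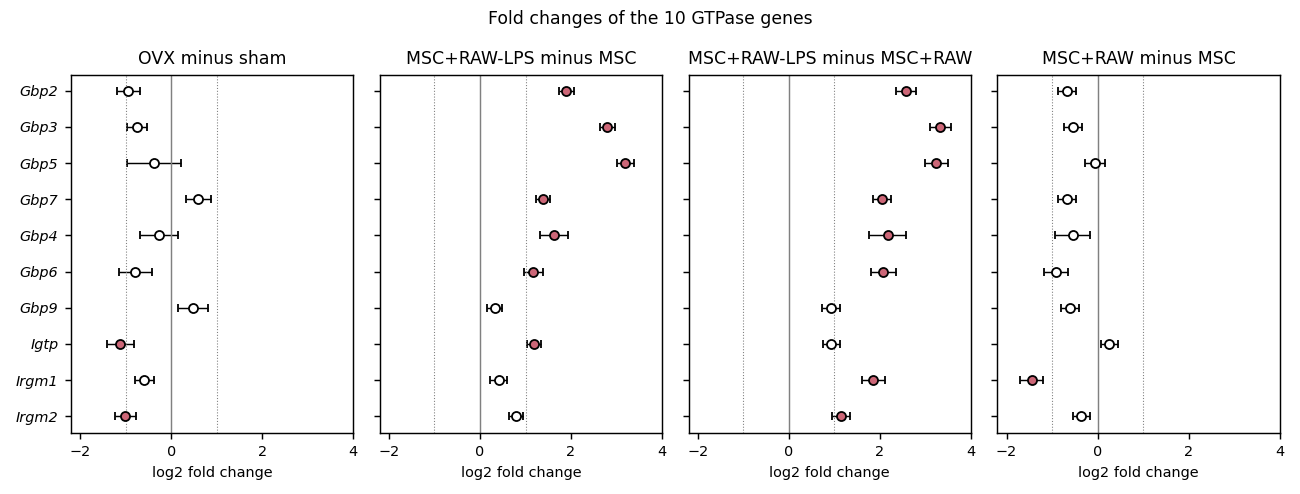
Log2 fold change (point) and its SE (bar) of each gene in the 4 comparisons from edgeR. Filled points are called at an adjusted p of at most 0.05 and a fold of at least 2, and dotted lines mark that fold. Filled points are 2 of 10 in OVX minus sham, 7 and 8 of 10 in the comparisons of MSC+RAW-LPS, and 1 of 10 in MSC+RAW minus MSC.

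The last comparison asked what untreated RAW cells did. Of the 10 genes, 1 was called lower (Irgm1) and 0 higher, where 9.59% of all genes tested were called lower and 6.8% higher, so the share called was near that of all genes. By direction 9 were below 0 and 1 above, and the groups did not overlap for 9, against 78.4% of all genes tested. Irgm1 fell by 1.45 on the log2 scale (SE 0.25; adjusted p = 0.000904). The other 9 lay between -0.91 (Gbp6) and 0.26 (Igtp), with a median over the 10 genes of -0.57 against -0.13 over all genes. With no fold limit 5 of the 10 were lower, which added Gbp2 (-0.68), Gbp6 (-0.91), Gbp7 (-0.67) and Gbp9 (-0.60), where 14.8% of all genes tested were lower. With trends of GC content and length removed, Gbp4 (0.10), Gbp5 (0.09), Gbp7 (0.02) and Gbp9 (0.05) turned sign, and Irgm1 remained called (-1.03).

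The other lists in the MSC cultures showed which genes of the pathway accompanied the family. Of 14 further GTPases tested, 3 were called higher and 0 lower against MSC. They were Gbp2b (the gene also known as Gbp1; 3.04), which went from 0.804 to 6.50 CPM, Mx2 (1.34) and the effector IRG Iigp1 (1.16). Against MSC+RAW, 5 were higher, Gbp2b (2.74), Iigp1 (1.94), Mx1 (1.53), Mx2 (1.20) and Gbp11. Gbp11 had 1 and 0 counts in the MSC+RAW libraries and 26 and 22 in MSC+RAW-LPS, so no fold is given. Without MSC+RAW-LPS library a, Iigp1 against MSC (0.97) and Mx2 against MSC+RAW (0.95) lost their calls, and without MSC replicate 1 Iigp1 against MSC was at 0.95 and not called.

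Among the 5 receptor genes tested, Ifnar2, a chain of the type I interferon receptor, was called higher against MSC (1.31, adjusted p = 2.41e-05) and against MSC+RAW (1.68, adjusted p = 2.23e-05). Its partner Ifnar1 was at 0.39 and 1.11, and was called in the second, though not without MSC+RAW-LPS library a (0.93). The interferon-gamma receptor chains went apart, with Ifngr1 at -0.49 and -0.97 and Ifngr2 at 0.53 and 0.27, none of them called. With trends of GC content and length removed, or without MSC+RAW-LPS library b, Ifngr1 was called lower against MSC+RAW (-1.01 and -1.06). Il10rb was at -0.45 against MSC and was called lower against MSC+RAW (-1.16).

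Of 11 kinases and transcription factors, 1 was called higher against MSC and 0 lower. Jak2, a kinase of the interferon-gamma receptor, rose from 45.5 CPM in MSC to 402 CPM in MSC+RAW-LPS (log2 fold change 3.14, adjusted p = 1.14e-09). It was at 34.1 CPM in MSC+RAW (3.53). Against MSC the others were at 0.12 for Stat2, Irf9 and Jak1, -0.03 for Irf1, -0.11 for Irf8 and -0.47 for Tyk2. Against MSC+RAW these were at 0.10 for Stat2, 0.25 for Irf9, 0.58 for Jak1, -0.10 for Irf1, -0.82 for Irf8 and -0.77 for Tyk2. Besides Jak2, 1 gene was called there, Ciita, the activator of MHC class II genes, with 0 counts in both MSC+RAW libraries and 23 and 8 in MSC+RAW-LPS. Its call was lost without MSC+RAW-LPS library a (adjusted p = 0.0505), where Tyk2 was called lower, at -1.03.

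Of 6 feedback genes, 4 were called higher against MSC, namely Socs3 (4.06), Socs1 (3.40), Usp18 (1.58) and Isg15 (1.55), with adjusted p of at most 4.81e-06. Socs3 went from 25.2 to 419 CPM and Socs1 from 11.9 to 125 CPM. Against MSC+RAW, 4 were higher, Socs1 (3.34), Socs3 (3.30), Ptpn2 (1.91) and Isg15 (1.06), the last not called without MSC+RAW-LPS library b (0.91).

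Of 13 genes of LC3 conjugation and ubiquitin tagging, 0 were called against MSC, and 0 with an unadjusted p and the fold limit or in DESeq2. Against MSC+RAW, 2 were higher (the ubiquitin ligase Trim21, 1.14, and Atg5, 1.10) and 3 lower (Gabarap, -1.56, Gabarapl1, -1.07, and Map1lc3b, -1.06). Of these 5, Gabarap alone was called with trends of GC content and length removed, with Trim21 at 0.87, Atg5 at 0.68, Gabarapl1 at -0.77 and Map1lc3b at -0.95. Without MSC+RAW-LPS library a, Atg5 (0.95), Gabarapl1 (-0.95) and Map1lc3b (-0.82) were not called.

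Of 7 inflammasome genes, Nlrp3 (1.32) and Casp4 (1.04), the latter the sensor of cytosolic LPS, were higher against MSC and Pycard was lower (-1.73). Casp4 was not called without MSC replicate 1 (0.93) or MSC+RAW-LPS library a (0.87). Against MSC+RAW, Casp4 (1.93), Casp1 (1.89), Nlrp3 (1.65) and Gm12250 (1.03) were higher and Pycard lower (-2.28). Gm12250 lost its call with trends of GC content and length removed (0.65), without MSC+RAW-LPS library a (0.85) and without MSC+RAW library b (0.99). Of 8 LPS-sensing genes, Ticam2 was higher (1.40) and Tlr4 lower (-1.16) against MSC, the latter not called without MSC replicate 2 (-0.99). Ly96 (1.68), Ticam2 (1.46) and Cd14 (1.11) were higher against MSC+RAW. Ly96 was at 0.84 and not called with trends of GC content and length removed (adjusted p = 0.139 in edgeR), and Cd14 at 0.61 and not called without MSC+RAW-LPS library a.

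MSC+RAW against MSC differed in other genes. Mx1 (-1.02), Gm4951 (-1.01), Ptpn2 (-1.38), Atg5 (-1.43), Casp1 (-1.71) and Gm12250 (-1.04) were called lower, as was Ciita (27 and 7 counts in MSC, 0 in MSC+RAW). Usp18 (1.21), Gabarap (1.47) and Gsdmd (1.04) were called higher. Most of these calls changed with the processing. With trends of GC content and length removed, Mx1 (-0.78), Gm4951 (-0.33), Ptpn2 (-0.61), Atg5 (-0.998), Gm12250 (-0.63) and Gsdmd (0.69) were not called. Mx1 and Gm4951 were also not called without MSC replicate 1 (-0.98 and -0.95), Mx1 not without MSC+RAW library b (-0.98), Gm4951 not without MSC+RAW library a (-0.98), and Gsdmd not without MSC replicate 2 (0.95). Ciita was not called without MSC replicate 1 (adjusted p = 0.167), MSC+RAW library a (0.0648) or MSC+RAW library b (0.0561).

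For the receptors, kinases and factors named above, Ciita aside, none was called and the values ran from -0.72 (Ifnar1) to 0.89 (Batf2), with Irf8 at 0.72. They were 0.48 for Ifngr1, 0.26 for Ifngr2, -0.37 for Ifnar2 and 0.71 for Il10rb. Among the kinases Jak1 was at -0.46, Jak2 at -0.39 and Tyk2 at 0.30, and among the factors Stat2 was at 0.02, Irf1 at 0.07 and Irf9 at -0.13.

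**Figure D5:**
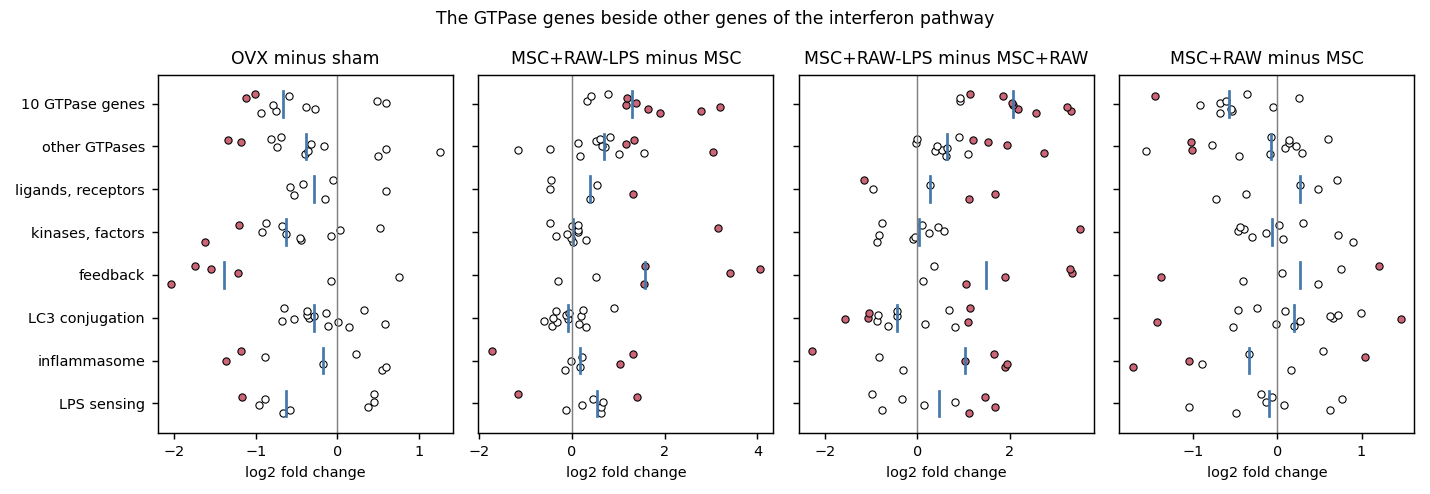
Log2 fold change from edgeR of the genes of each list in the 4 comparisons. Points are genes, filled where called, and blue lines are medians. Gbp11 and Ciita are not drawn against MSC+RAW, where they had at most 1 count. Genes of the feedback list reach -2.04 (Isg15) in OVX minus sham and 4.06 (Socs3) in MSC+RAW-LPS minus MSC.

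Markers of other cell types also differed between the MSC cultures. The 20 macrophage markers summed to 32089 to 32353 CPM in MSC, 42409 to 42838 CPM in MSC+RAW and 16610 to 17644 CPM in MSC+RAW-LPS. Most of each sum was Lyz2, and the median over the markers was 595 CPM, 592 CPM and 236 CPM. Adgre1, the macrophage marker F4/80, had another order, at 548, 335 and 1468 CPM. In MSC+RAW-LPS, 9 of 20 were called lower and 1 higher against MSC, and 10 lower and 4 higher against MSC+RAW. In MSC+RAW against MSC, 5 were called higher and 0 lower. Stromal markers summed to 2730 to 2880 CPM, 2182 CPM and 3960 to 3978 CPM in the same order of groups. Of 12, 1 was called higher and 0 lower in MSC+RAW-LPS against MSC, and 5 higher and 1 lower against MSC+RAW. In MSC+RAW against MSC, Eng (1.06) and Thy1 (2.42) were called higher and Prrx1 (-1.32) and Pdgfra (-1.07) lower. Markers of other immune cells summed to 238 to 267 CPM in MSC, 388 to 412 CPM in MSC+RAW and 658 to 882 CPM in MSC+RAW-LPS. Of the 7 tested, 1 was called higher in each comparison, S100a8, a calcium-binding protein of neutrophils and monocytes, at 13.4 CPM, 31.4 CPM and 428 CPM. The T cell, natural killer and B cell genes of that list were below 1 CPM in every library. Their part in the levels of the GTPase genes was not tested. RNA of RAW cells carried over from the co-cultures cannot be told apart from that of the cultured cells.

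The 5 genes whose pattern was most like the mean of the 10, by the smaller of the Pearson correlations over the 5 BMM samples and the 5 MSC samples among 16229 genes, were Tnip3 (0.991), Clec14a (0.989), Ism1 (0.983), Acsl1 (0.983) and Lrrc8d (0.982). With 5 samples in each, such values are a description only.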

How the data were processed

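Per the methods and labels, the authors isolated poly(A) RNA, prepared directional libraries and sequenced them as read pairs. They trimmed the reads with Trim Galore 0.6.7, aligned them to GRCm38 with HISAT2 2.1.0 and counted them per Ensembl gene with featureCounts 2.0.1. The files deposited hold unnormalized counts, 1 column a library. Strand and multi-mapping settings are not given in the sources used here. Among genes of 1 to 20 counts, 60.0% to 71.4% of counts were even in each library, so counts do not behave as single molecules.

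Gene names came from GENCODE M21 (GRCm38). Column names with a group but no matching replicate were used by group. Near-identical libraries were summed as 1 sample. Tests used edgeR 4.0.16 in R 4.3.3 (TMM, filterByExpr, two-sided quasi-likelihood F-test, Benjamini-Hochberg adjustment over all genes tested), in 1 fit for BMMs and 1 for the 3 MSC groups. A gene was called at an adjusted p of at most 0.05 and a log2 fold change of at least 1 in size. The SE beside a log2 fold change was calculated as that fold change in absolute size over the square root of its F statistic. CPM used TMM factors over single libraries, and means were taken over samples. Where every library of a group held at most 3 counts, counts are given in place of a fold. Alternatives were RLE factors, DESeq2, other filters and limits, single libraries, blocks, leave-outs, and offsets that removed lowess trends of GC content and exon length. All 10 members are named, and genes of the lists are named where called or where they are receptors, JAK kinases, Stat2, Irf1, Irf8 or Irf9. The members and lists were chosen with earlier results of these data known. A gene of the kinase and factor list is not reported here and is left out of that list's counts.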

Additional observations from a re-analysis of the deposited data

How the results depend on the processing

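In BMMs, 2 members were called in OVX against sham. This number was 2 with RLE size factors, DESeq2 1.42.0 or an unadjusted p, 3 with no fold limit or with trends of GC content and length removed (then Gbp2, Gbp6 and Irgm2), 1 without a filter on low counts or with a mean of at least 1 CPM (Igtp), and 0 with every library a separate sample. Leaving out 1 library at a time gave 0 to 2. The labels number OVX and sham replicates alike. Deviations of same-numbered libraries correlated at 0.473, -0.0386 and 0.446. OVX 1 and OVX 3 correlated best with their own number, and OVX 2 with sham 1 (0.0728). Since sham 2 and sham 3 were counted as 1 sample, this check cannot tell whether the numbers pair the libraries. With the replicate block 0 members were called, as with the column identifier as a block, an alternative chosen after seeing the data. In the MSC cultures, whose columns carry no matching replicate numbers, a block by replicate number could not be fitted, and the column identifier as a block gave 7, 8 and 1 members.

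In MSC+RAW-LPS, 7 members were called against MSC (6 to 8 over the alternatives, 6 to 7 leaving out 1 library) and 8 against MSC+RAW (7 to 10, and 8 to 9). In MSC+RAW against MSC, 1 was called (5 with no fold limit, and 1 to 2 leaving out 1 library, with Gbp6 added without MSC replicate 1 or MSC+RAW library b). Against MSC+RAW, all members but Gbp9 and Irgm2 stayed on their side of the limits in every alternative that kept the fold limit.

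Some signs turned, and the values then lay near 0. With trends of GC content and length removed, in OVX against sham these were Gbp7 (-0.051), Gbp9 (-0.13) and Jak1 (-0.072). In MSC+RAW against MSC they were Gbp4 (0.096), Gbp5 (0.094), Gbp7 (0.022), Gbp9 (0.051), Jak2 (0.11), Tyk2 (-0.15), Stat2 (-0.092) and Irf1 (-0.16), and in MSC+RAW-LPS Irf1 was at 0.023 against MSC and 0.18 against MSC+RAW. Leaving out 1 library at a time in BMMs gave Gbp4 from -0.48 to 0.071 (the latter without sham 1), Gbp5 from -0.92 to 6.2e-05 (without OVX 2), Jak1 from -0.027 (without sham 1) to 0.072 and Il10rb from -0.078 to 0.0062 (without OVX 2). In MSC+RAW-LPS against MSC it gave Irf1 from -0.11 to 0.026 and Irf8 from -0.27 to 0.025, both turned without MSC+RAW-LPS library a, and in MSC+RAW against MSC it gave Gbp5 from -0.28 to 0.071 (without MSC+RAW library b) and Stat2 from -0.068 to 0.11. Stat2 there was at -0.010 with every library separate, -0.0065 with the identifier as a block and -0.0062 with only the 2 groups compared. The causes were not tested. The design holds few samples a group, and the GBPs near 1 CPM in BMMs rest on few counts.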
